A study of Mus musculus with 6 samples.

Results

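The miRNAs described here were 7 mature miRNAs from 5 precursors, out of 1522 rows in the deposited table. They were mmu-miR-1264-5p, mmu-miR-1264-3p, mmu-miR-1298-5p and mmu-miR-448-3p, which are processed from introns of the serotonin receptor gene Htr2c, together with mmu-miR-204-5p and mmu-miR-204-3p from Trpm3 and mmu-miR-211-5p from Trpm1, and are written without the species prefix from here on. They were picked by name, with their levels in the exposed and control libraries already known, so every difference between those groups given for them is a description and carries no test. The 6 small RNA libraries came from hippocampal neural stem cells (NSCs) of C57BL/6J mice, all male and taken at postnatal day 3. In the exposed group, called GDE here and IUGR in the library titles, the dams had received the synthetic glucocorticoid dexamethasone (DEX) intraperitoneally, 1 mg/kg on each day between E14.5 and E18.5 of gestation. In the Control group, titled Normal, the dams had saline injections on the same days. Each group had 3 libraries, from independent litters per the design text, and no genetic change or other treatment is named for either.

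Htr2c encodes the serotonin 2C receptor, a G protein-coupled receptor found in neurons and, at very high density, in the epithelium of the choroid plexus, the tissue in the brain ventricles that secretes cerebrospinal fluid. miRNAs in introns are usually cut out of the transcript of their host gene, so their levels often follow the activity of that gene. miR-204 lies in Trpm3, an ion channel gene active in choroid plexus, retinal pigment epithelium and lens. miR-211 lies in Trpm1, also called melastatin, an ion channel gene of pigment cells and retina. A miRNA recognises its targets mainly through its seed, bases 2 to 8 counted from the 5′ end. miR-204-5p and miR-211-5p form a family with a common seed.

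Mature sequences are shown because they set which of these miRNAs could share targets or reads. RefSeq (build GRCm38.p6) held 6 of the 7, written here 5′ to 3′ with the seed in capitals; miR-1264-5p is named only.
miR-204-5p: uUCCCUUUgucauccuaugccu
miR-211-5p: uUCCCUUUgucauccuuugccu
miR-204-3p: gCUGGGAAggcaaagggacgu
miR-1298-5p: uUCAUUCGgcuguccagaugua
miR-448-3p: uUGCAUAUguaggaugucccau
miR-1264-3p: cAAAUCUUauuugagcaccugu

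Among these 6 sequences only miR-204-5p and miR-211-5p had the same seed, UCCCUUU. They were identical at 21 of 22 positions, with the single substitution A17U (the base of miR-204-5p first, counted from its 5′ end), which lies outside the seed. Each of the other 4 had a seed of its own. Read side by side from the 5′ end, the 3 printed sequences from Htr2c introns were identical to each other at 3 to 7 positions and to miR-204-5p at 5 to 9 positions. How reads matching more than 1 miRNA were handled is not given in the sources used here, so the division of reads between miR-204-5p and miR-211-5p is uncertain.

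The precursors show where each measured arm sits. In the RefSeq hairpins, written 5′ to 3′ with both annotated mature arms in capitals, miR-204-5p, miR-211-5p and miR-1298-5p come from the 5′ arm and miR-448-3p from the 3′ arm. All 4 are on the plus strand of GRCm38.p6, Mir204 at chr19:22750605-22750672, Mir211 at chr7:64205806-64205911, Mir1298 at chrX:147064905-147065002 and Mir448 at chrX:147158210-147158321.
Mir204: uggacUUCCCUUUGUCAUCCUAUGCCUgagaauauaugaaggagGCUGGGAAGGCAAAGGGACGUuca
Mir211: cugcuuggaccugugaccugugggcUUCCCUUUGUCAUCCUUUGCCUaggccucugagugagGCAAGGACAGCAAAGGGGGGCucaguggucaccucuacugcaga
Mir1298: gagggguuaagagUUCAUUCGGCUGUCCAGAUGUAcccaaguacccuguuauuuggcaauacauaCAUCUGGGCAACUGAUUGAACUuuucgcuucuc
Mir448: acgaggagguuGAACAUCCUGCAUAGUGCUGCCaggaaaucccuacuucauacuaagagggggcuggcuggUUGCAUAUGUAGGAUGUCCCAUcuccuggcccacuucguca

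In GENCODE M21 (GRCm38, the assembly called mm10), Htr2c runs over chromosome X from 146962513 to 147197277 on the plus strand. Mir1264, at 147010601 to 147010686, and Mir1298 lay in the same intron, intron 2 of the 5 introns of transcript Htr2c-201, at 48.1 and 102.4 kb from the start of the gene. Mir448 lay in intron 4 of that transcript, at 195.7 kb. The gap from Mir1264 to Mir1298 was 54.2 kb and that from Mir1298 to Mir448 was 93.2 kb. All 3 were on the strand of Htr2c and overlapped no exon of its 4 coding transcripts that span them. Mir204 lay in introns of all 15 coding Trpm3 transcripts that span it, and Mir211 in introns of all 8 of Trpm1, each on the strand of its host.

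**Figure D1:**
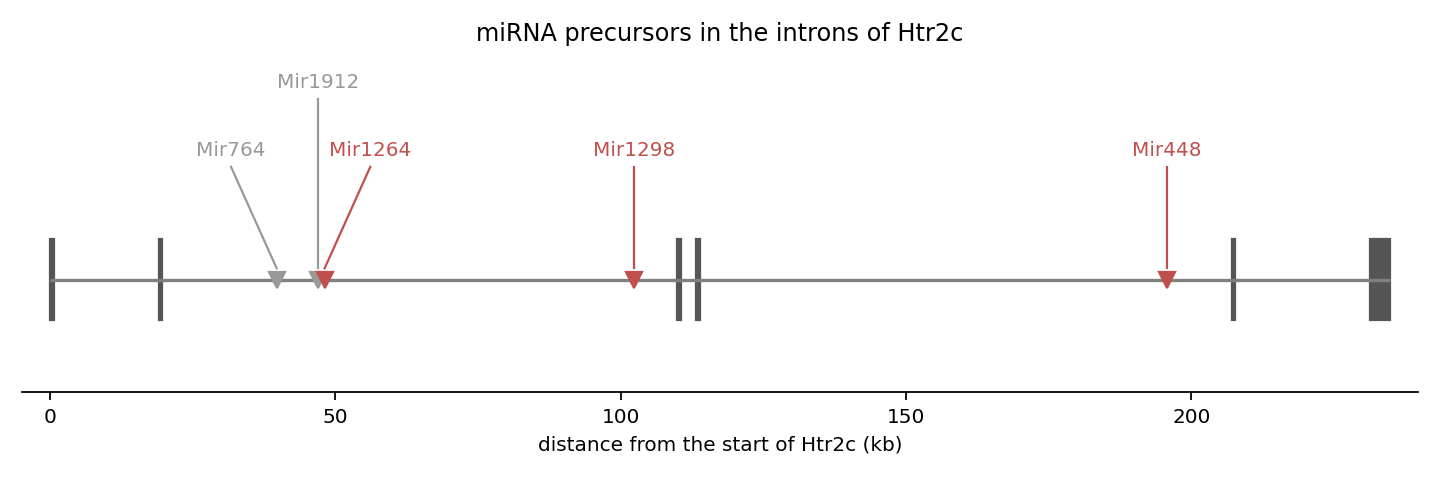
Map of Htr2c with distance from the gene start in kb on the x axis. Dark blocks are the exons of transcript Htr2c-201, drawn at least 0.6 kb wide, and triangles are miRNA precursors. They are in red for Mir1264, Mir1298 and Mir448 and in grey for the neighbouring Mir764 and Mir1912. Mir1264 and Mir1298 share an intron and Mir448 lies in another. The precursor of miR-1911, which lies between Mir1298 and Mir448, is not drawn.

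Levels are the deposited RPM values, tags divided by library depth. Each library rested on about 11751000 to 12385000 tags, of which 2927136 to 3343808 were assigned to miRNAs of the table, and where no tag was seen the level could still be up to 0.25 RPM (3 tags). The libraries within each group differed well beyond counting noise. NSC identity can be checked only through miRNAs in this table. The progenitor-enriched miR-9-5p averaged 8389 ± 209 RPM in GDE and 8427 ± 357 RPM in Control (SD, n = 3 each), so it was far above every miRNA described here. Lists of miRNAs of other cell types, taken up below, were present too. The neuron list summed to 2619 to 3113 RPM in GDE and 2730 to 3044 RPM in Control. The microglia and leukocyte list summed to 2387 to 2861 RPM in GDE and 1700 to 2409 RPM in Control. Most of the microglia and leukocyte sum was a single miRNA, miR-146a-5p, at 1258 to 2088 RPM over the libraries. No sorting step is given in the sources used here beyond a neural tissue dissociation kit.

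The miR-204 and miR-211 family came first by level. miR-204-5p, known for holding epithelia such as retinal pigment epithelium in their differentiated state, was the most abundant of the 7 in all 6 libraries and held 89.5% of their tags. It stood at 688.0, 384.5 and 973.5 RPM in GDE replicates 1, 2 and 3, and at 154.7, 325.2 and 519.1 RPM in Control replicates 1, 2 and 3. GDE replicates 1 and 3 lay above every Control library, while GDE replicate 2 lay below Control replicate 3, so the groups overlapped. The means were 682.0 ± 294.5 RPM in GDE and 333.0 ± 182.3 RPM in Control (SD, n = 3 each), and the log2 fold of GDE over Control, on the log2(RPM + 1) scale used for all folds here, was 1.10 (SE 0.47). That difference was larger than the within-group SD of 0.78 on the same scale. Without Control replicate 1, the lowest library, the log2 fold was 0.63.

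miR-204-3p, the passenger strand of the same hairpin, was at 2.34, 1.02 and 3.96 RPM in GDE replicates 1 to 3 and at 0.582, 1.45 and 2.04 RPM in Control replicates 1 to 3. The groups overlapped, with GDE replicate 2 below Control replicates 2 and 3. The log2 fold was 0.50 (SE 0.38), smaller than the within-group SD of 0.57. It was 0.19 without GDE replicate 3, 0.24 without Control replicate 1 and 0.84 without GDE replicate 2. The 5p arm outnumbered the 3p arm by 294, 379 and 246 to 1 in the tags of GDE replicates 1 to 3 and by 266, 224 and 254 to 1 in those of Control replicates 1 to 3. With only 7 to 48 tags of the 3p arm per library, the 95% intervals (exact Clopper-Pearson, counting error only, as for all intervals here) of these 6 ratios all overlapped. They ran from 185 to 334 in GDE replicate 3, with 48 tags of the 3p arm, and from 129 to 662 in Control replicate 1, with 7.

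miR-211-5p, best known from melanocytes and melanoma, had 244 tags over all 6 libraries, against 36578 of miR-204-5p. It stood at 3.26, 3.13 and 9.32 RPM in GDE replicates 1 to 3, from 39, 37 and 113 tags, and at 1.25, 2.26 and 1.02 RPM in Control replicates 1 to 3, from 15, 28 and 12 tags. It was the 1 miRNA of the 7 whose groups did not overlap, and groups without overlap were found for 14.6% of the 649 miRNAs tested, 4.62% with GDE higher. Its log2 fold was 1.20 (SE 0.38), with a within-group SD of 0.59, and it was 0.77 without GDE replicate 3. Because the choice of miRNAs used this contrast, nothing is read from that count.

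As a share of miR-204-5p, miR-211-5p came to 0.473%, 0.814% and 0.957% in GDE replicates 1 to 3 and to 0.806%, 0.695% and 0.197% in Control replicates 1 to 3. The share was not the same in all libraries beyond counting error, which does not include the spread between litters. Its interval in Control replicate 3 was 0.102% to 0.344%, below the intervals of GDE replicate 2 (0.573% to 1.12%), GDE replicate 3 (0.788% to 1.15%), Control replicate 1 (0.450% to 1.33%) and Control replicate 2 (0.461% to 1.01%). The order of libraries for miR-211-5p also differed from that of miR-204-5p. Control replicate 3, the highest Control library for miR-204-5p, was the lowest of all 6 for miR-211-5p.

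The Htr2c intron miRNAs were rarer than miR-204-5p. miR-1298-5p, the most abundant of them, ranked second of the 7 in all 6 libraries. It was at 55.3, 17.1 and 131.0 RPM in GDE replicates 1 to 3 and at 5.32, 10.5 and 29.6 RPM in Control replicates 1 to 3. GDE replicate 3 and GDE replicate 1 were again the highest, followed by Control replicate 3 and only then GDE replicate 2, so the groups overlapped. The means were 67.8 ± 58.0 RPM in GDE and 15.1 ± 12.8 RPM in Control (SD, n = 3 each), with a log2 fold of 1.97 (SE 0.78) and a within-group SD of 1.30. Without GDE replicate 3 the fold was 1.29. Within GDE alone the highest library was 7.66 times the lowest, and within Control 5.57 times.

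miR-1264-5p, from another precursor of the same intron, was at 10.9, 3.72 and 27.4 RPM in GDE replicates 1 to 3 and at 1.41, 1.78 and 6.72 RPM in Control replicates 1 to 3. Its libraries fell in the same order as those of miR-1298-5p, and its groups overlapped in the same way. The log2 fold was 1.65 (SE 0.67), with a within-group SD of 1.12, and it was 1.01 without GDE replicate 3. miR-1264-3p, the other arm, was the lowest of the 7 in 5 of 6 libraries, at 1.08, 0.339 and 2.39 RPM in GDE replicates 1 to 3 and at 0.083, 0.404 and 1.62 RPM in Control replicates 1 to 3. Its groups overlapped, with Control replicate 3 above GDE replicate 1. Its log2 fold of 0.42 (SE 0.42) was smaller than its within-group SD of 0.66. It was 0.08 without GDE replicate 3, 0.14 without Control replicate 1, 0.75 without GDE replicate 2 and 0.78 without Control replicate 3.

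The arms of miR-1264 were closer in level than those of miR-204. The 5p arm outnumbered the 3p arm by 10.1, 11.0 and 11.4 to 1 in GDE replicates 1 to 3, on 13, 4 and 29 tags of the 3p arm. In Control replicates 1 to 3 it did so by 17.0, 4.40 and 4.16 to 1, on 1, 5 and 19 tags. The ratios of the groups overlapped, with the highest ratio in the Control library that had 1 tag of the 3p arm. The interval of that library was 2.66 to 710. The intervals of GDE replicate 3 (7.82 to 17.4) and Control replicate 3 (2.50 to 7.27) did not overlap. Those of the other libraries overlapped both. Counting error leaves out the spread between litters.

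miR-448-3p, from the precursor nearest to the end of Htr2c, was at 3.92, 1.52 and 10.3 RPM in GDE replicates 1 to 3, from 47, 18 and 125 tags. In Control replicates 1 to 3 it was at 0.332, 0.807 and 1.87 RPM, from 4, 10 and 22 tags. The libraries again fell in the order of miR-1298-5p, and Control replicate 3 lay above GDE replicate 2. The log2 fold was 1.45 (SE 0.53), with a within-group SD of 0.86, and it was 0.89 without GDE replicate 3. The tags of the GDE libraries summed to 5.31 times those of the Control libraries per library tag. GDE replicate 3 gave 125 of the 190 GDE tags, so this ratio rests largely on 1 library.

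**Figure D2:**
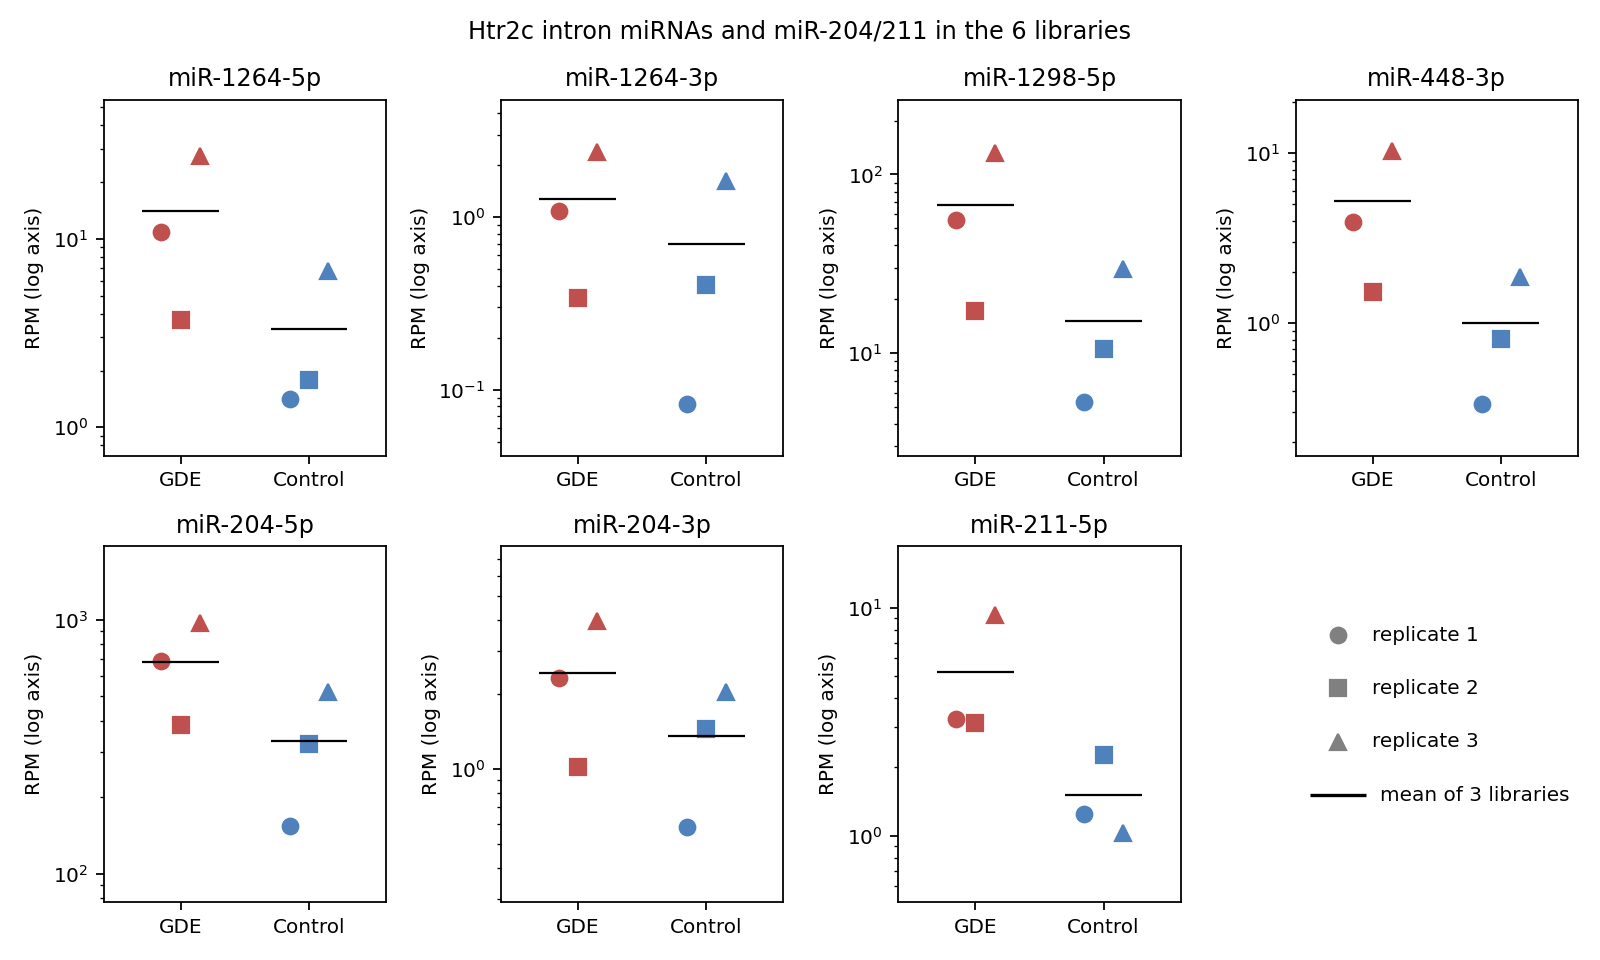
Level of each of the 7 miRNAs in RPM on a log axis, with 1 panel per miRNA, GDE in red and Control in blue. Each point is 1 library with its replicate as the marker shape, and the black line is the mean of 3 libraries. GDE replicate 3 is the highest point in all 7 panels, and only in the panel of miR-211-5p do the groups not overlap.

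Set side by side, the order of mean levels over the 6 libraries was miR-204-5p at 507.5 RPM, miR-1298-5p at 41.5, miR-1264-5p at 8.66, miR-211-5p at 3.37, miR-448-3p at 3.13, miR-204-3p at 1.90 and miR-1264-3p at 0.986 RPM. These levels are not divided by length. The first and second places were the same in every library, and miR-1264-5p followed in 5 of 6. The next places were not separate. miR-448-3p was above miR-211-5p in 3 of 6 libraries, and it was above miR-204-3p in 3 of 3 GDE libraries but in 0 of 3 Control libraries.

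The order of the libraries was shared by most of the 7 miRNAs. For miR-204-5p, miR-1298-5p, miR-1264-5p and miR-448-3p, which have 3 host introns on 2 chromosomes between them, all 6 libraries fell in 1 order. It ran GDE replicate 3, GDE replicate 1, Control replicate 3, GDE replicate 2, Control replicate 2 and Control replicate 1. GDE replicate 3 was the highest library for all 7, and Control replicate 1 was the lowest for 6 of 7, the exception being miR-211-5p. The libraries are the same for all 7, so these orders are not independent observations.

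**Figure D3:**
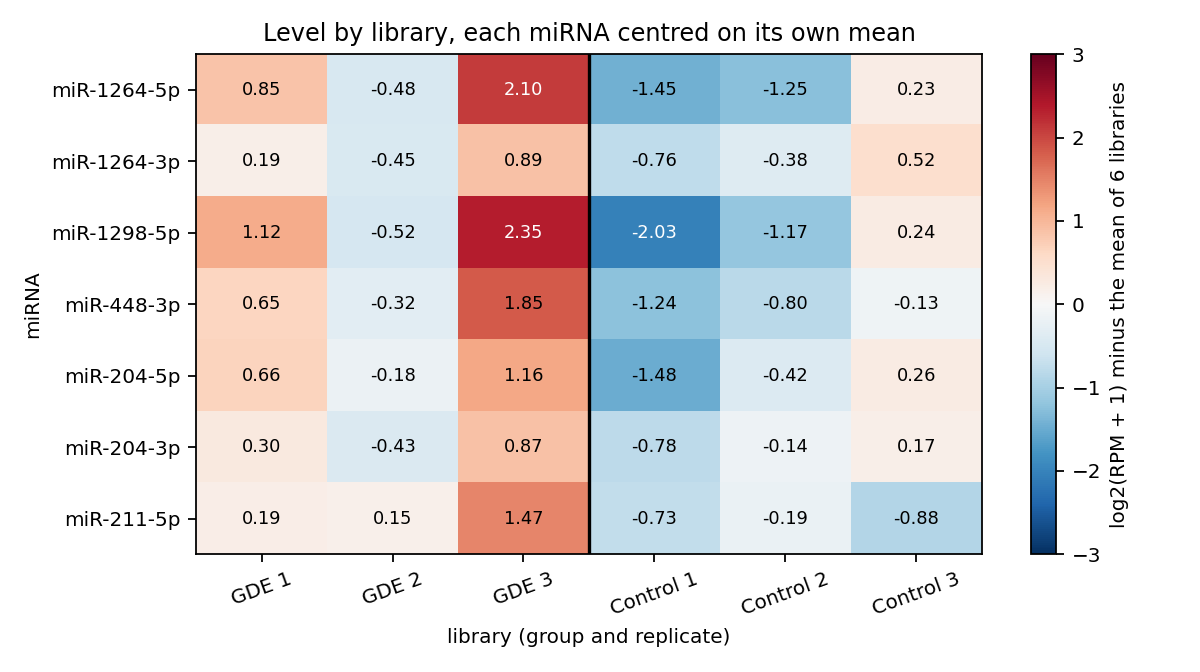
Level of each miRNA by library, as log2(RPM + 1) minus the mean of that miRNA over the 6 libraries, with GDE libraries left of the black line and Control libraries right of it. The column of GDE replicate 3 is the darkest red, from 0.87 for miR-204-3p to 2.35 for miR-1298-5p, and the column of GDE replicate 2 is below 0 for all but miR-211-5p.

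Within a library the 3 more abundant Htr2c intron miRNAs kept nearly constant proportions while their levels spanned a wide range. miR-1298-5p differed 24.6-fold between its highest and lowest library, miR-1264-5p 19.4-fold and miR-448-3p 31.0-fold. Yet miR-1264-5p came to 19.8%, 21.8% and 20.9% of the tags of miR-1298-5p in GDE replicates 1 to 3, and to 26.6%, 16.9% and 22.7% in Control replicates 1 to 3. The values farthest out were those of Control replicates 1 and 2, which rested on 17 and 22 tags of miR-1264-5p. Their intervals, 14.6% to 45.9% and 10.3% to 26.7%, held the values of all other libraries. miR-448-3p came to 7.09%, 8.91% and 7.87% of miR-1298-5p in GDE replicates 1 to 3 and to 6.25%, 7.69% and 6.32% in Control replicates 1 to 3. The narrowest interval was 6.50% to 9.44%, in GDE replicate 3, and the others overlapped it.

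miR-204-5p did not keep a constant proportion to them. miR-1298-5p was 8.05%, 4.45% and 13.5% of miR-204-5p in GDE replicates 1 to 3, and 3.44%, 3.23% and 5.70% in Control replicates 1 to 3. The groups overlapped, with GDE replicate 2 below Control replicate 3. Within GDE alone the proportion differed by more than counting error, with intervals of 12.8% to 14.2% in GDE replicate 3, 7.42% to 8.71% in GDE replicate 1 and 3.84% to 5.12% in GDE replicate 2. miR-204-5p itself differed 6.29-fold between its highest and lowest library, miR-204-3p 6.80-fold and miR-211-5p 9.13-fold. The 4 libraries with the most miR-204-5p also had the 4 highest proportions of miR-1298-5p to it, in the same order.

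**Figure D4:**
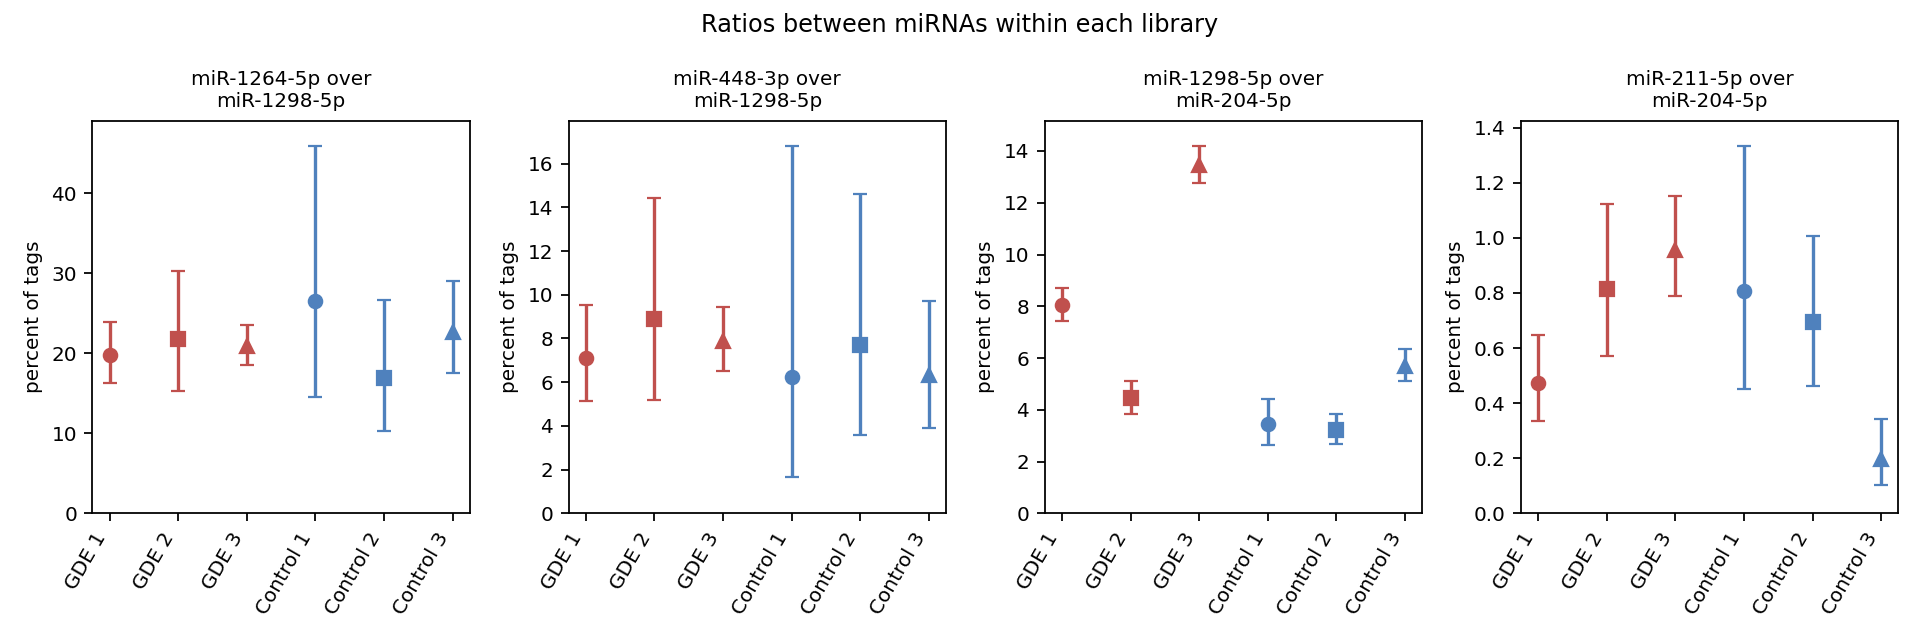
Tags of 1 miRNA as a percent of the tags of another within each library, with GDE in red and Control in blue and bars for the 95% exact counting interval. In the first and second panels the bars of all 6 libraries overlap, while miR-1298-5p over miR-204-5p runs from 3.23% in Control replicate 2 to 13.5% in GDE replicate 3, and miR-211-5p over miR-204-5p is lowest, at 0.197%, in Control replicate 3.

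The filter on low values asked for 1 RPM in at least 3 libraries and left 649 miRNAs, all 7 included. Of these 649, 2 differed between GDE and Control (limma, adjusted p under 0.05), or 0.308%, with 1 of them, or 0.154%, higher in GDE. edgeR also called 0.308% and DESeq2 1.08%, and 0 of the 7 were called by any of these tools. DESeq2 gave no adjusted p for some rare miRNAs, so those could not be called by it. The 2 called by limma were miR-297c-5p, higher in GDE, and a predicted miRNA without a miRBase name, lower in GDE. The median log2 fold of all 649 was -0.07, 38.8% of them had a positive log2 fold and 2.47% a log2 fold above 1. Of the 7 miRNAs, all had a positive log2 fold, 5 had one above 1 and the median was 1.20, which restates the contrast they were picked on. For 5 of the 7 the log2 fold exceeded the within-group SD, and for miR-204-3p and miR-1264-3p it did not. GDE replicate 3 decided much of the size, since the median was 0.79 without it.

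The spread between libraries of the same group was large for these miRNAs. Over all 649 tested miRNAs the median within-group SD was 0.28 on the log2 scale. That of miR-1298-5p, 1.30, was the 6th largest of the 649, that of miR-1264-5p the 9th, that of miR-448-3p the 18th and that of miR-204-5p the 25th. The other 3 ranked between 45 and 68. In RNA from a whole preparation, fewer cells of a type and less of a miRNA per cell cannot be told apart.

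The other arms and miRNAs of the Htr2c introns were looked up from a list of 8 names, 3 of which had a row in the table. None of the 3 reached 1 RPM in 3 libraries, so they were outside the test. miR-764-5p, whose precursor lies upstream of Mir1264 in the same intron at 147002259 to 147002366 on chromosome X, was at 1.59, 0.592 and 1.73 RPM in GDE replicates 1 to 3, from 19, 7 and 21 tags. In Control replicates 1 to 3 it was at 0.083, 0 and 0.255 RPM, from 1, 0 and 3 tags. The groups did not overlap. Among the 649 tested miRNAs, which leave miR-764-5p out, 4.62% had every GDE library above every Control library, and the share among rarer rows was not computed. The tags of the GDE libraries summed to 11.8 times those of the Control libraries per library tag, on only 4 Control tags. With no filter on low values, over 1522 rows, it did not pass (limma, log2 fold 1.02, SE 0.23, adjusted p = 0.276). miR-1298-3p and miR-448-5p, the opposite arms of miR-1298-5p and miR-448-3p, had 11 and 9 tags over all 6 libraries, against 2996 and 226 for the described arms. The opposite arm of miR-211, miR-211-3p, had no row in the table.

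Lists of miRNAs of other cell types were compared because choroid plexus or its neighbours could lie close to a dissected hippocampus. Of 43 listed miRNAs tested, 0 passed (limma, adjusted p under 0.05). An unadjusted limma p under 0.05 was found for 7 of the 43, a larger share than the 56 (8.63%) of all 649. The lists were chosen with earlier results known, so nothing is read from that share. edgeR also called 0, and DESeq2 called 1, miR-150-5p of the microglia and leukocyte list. The list of multiciliated and ependymal cells, chosen because ependyma lines the ventricles and choroid plexus epithelium is itself multiciliated, had 6 of 9 names in the table and none at 0 in any library. Its summed level was 1729 to 2124 RPM in GDE and 1960 to 3030 RPM in Control. GDE replicate 3, the highest library for the 7 miRNAs, was the lowest for this list, and Control replicate 1 was the highest. The sum mostly reflects miR-34b and miR-34c, with miR-34b-3p at 630.8 RPM and miR-34c-5p at 537.8 RPM in GDE replicate 3. Of its 5 tested members 0 passed, 4 had a negative log2 fold (3 with TMM factors), and the list's median was -0.25 (-0.02 without Control replicate 1). miR-449a-5p, a miRNA induced in multiciliated cells, was the 1 with a positive fold, and unlike the sum it was lowest in Control replicate 1. It was at 230.3, 148.3 and 163.7 RPM in GDE replicates 1 to 3 and at 97.3, 120.2 and 150.0 RPM in Control replicates 1 to 3 (log2 fold 0.55, SE 0.25; limma, adjusted p = 0.561), and Control replicate 3 lay above GDE replicate 2. miR-34c-3p of the same list was lower by the same test without passing it (log2 fold -0.63, SE 0.21, limma adjusted p = 0.551). Every GDE library lay below every Control library for it and for miR-34b-3p, while the other tested members of the list overlapped. Groups without overlap were found for 14.6% of the 649 miRNAs, 4.62% with GDE higher. Some members of other lists did not overlap either, with GDE higher.

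The epithelial list, led by the miR-200 family, had 9 of 13 names in the table, a sum of 24.5 to 26.5 RPM in GDE and 26.4 to 38.0 RPM in Control, and 0 of 5 tested members past the threshold. The median log2 fold was -0.19. The miR-200 family itself was uneven. miR-200a-3p and miR-200b-3p did not exceed 0.423 RPM in any library and were at 0 in 1 library each, while miR-200c-3p was at 4.29 to 7.03 RPM, miR-429-3p at 0.665 to 1.94 RPM and miR-141-3p at 0.161 to 1.40 RPM over the 6 libraries. miR-203-3p, a miRNA of skin epithelium, was the most abundant of the list at 14.4 to 26.4 RPM. The sensory and retinal list had 4 of 4 names in the table, with miR-184-3p as the 1 tested, and sums of 36.5 to 86.9 RPM in GDE and 68.5 to 85.7 RPM in Control. GDE replicate 3 held the highest sum of this list and GDE replicate 2 the lowest. miR-183-5p, miR-96-5p and miR-182-5p, which mark sensory cells, did not exceed 2.50 RPM in any library.

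Lists of vessels, coverings and blood were set beside the same libraries. The endothelial and mural list had 5 of 5 names in the table and summed to 339.9 to 559.1 RPM in GDE and 316.1 to 409.0 RPM in Control, with GDE replicate 3 the highest and Control replicate 3 the lowest. All 4 of its tested members had a positive log2 fold, with a median of 0.33, and 0 passed. The mesenchymal and meningeal list had 5 of 5 names and summed to 45.9 to 58.3 RPM in GDE and 37.0 to 47.7 RPM in Control. Its sum was highest in GDE replicate 3 and lowest in Control replicate 1, as for 6 of the 7 miRNAs. Most of that sum was miR-199a-5p, at 23.7 to 45.4 RPM over the libraries, while miR-199a-3p, at 7.56 RPM in Control replicate 1, was not lowest there. Of its 5 tested members 3 had a positive log2 fold, with a median of 0.12, and 0 passed. The microglia and leukocyte list had a median of 1.23 over 7 tested members, 6 of them positive, and the erythroid list 0.53 over 3, all positive, with GDE replicate 2 the highest library for both sums. None of these passed in limma. Whether any of these cell types had a part in the levels of the 7 miRNAs was not tested.

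The neural progenitor and neuron lists had small median log2 folds, with single members between -0.42 and 0.12. The neural progenitor list had 7 tested members with a median log2 fold of -0.06, close to that of all 649 miRNAs. All 7 were negative on the deposited scale, but 4 were positive and 3 negative after rescaling to the rows of the table (median 0.0027), with TMM factors (median 0.03) and in edgeR. Of 6 neuron members 4 had a positive log2 fold, with a median of 0.05. None passed in limma. GDE replicate 3 was the lowest library for the neuron sum.

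**Figure D5:**
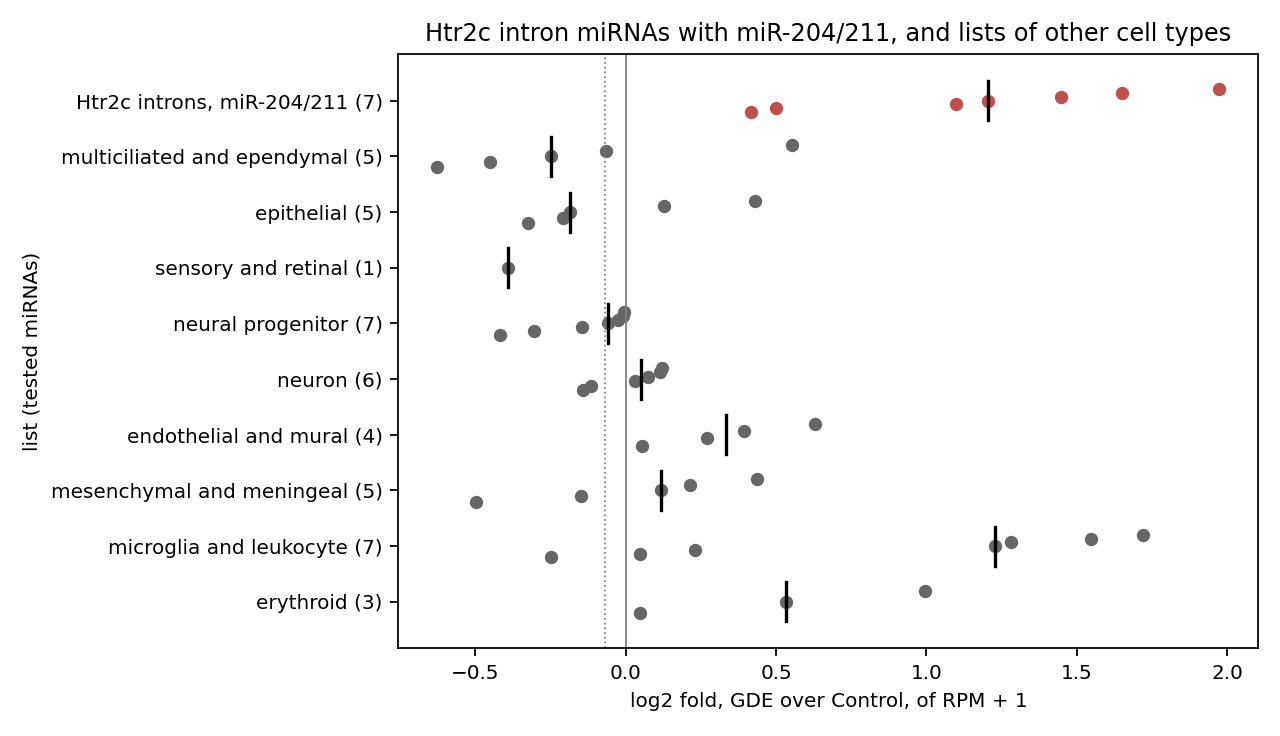
log2 fold of GDE over Control on the log2(RPM + 1) scale for each tested miRNA, by list, with the number tested in brackets. Each point is 1 miRNA and each black bar the median of a list; the dotted line is the median of all 649 tested miRNAs, at -0.07. The 7 described miRNAs, in red, lie between 0.42 and 1.97, the microglia and leukocyte list reaches 1.72, and the multiciliated and ependymal list lies mostly below 0.

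The tested miRNAs nearest in profile to the mean of the 7 were looked for by the root mean square difference of centred log2(RPM + 1) over the 6 libraries. The nearest was miR-10a-5p of a Hox gene cluster, at a distance of 0.363, followed by miR-196b-5p of another Hox cluster at 0.463, miR-323-3p at 0.544, miR-463-5p at 0.568 and miR-375-3p at 0.574. The 7 themselves lay between 0.171 and 0.583, and a flat profile would lie at 0.877. miR-10a-5p was at 9.43, 7.87 and 23.9 RPM in GDE replicates 1 to 3 and at 2.49, 7.59 and 5.62 RPM in Control replicates 1 to 3. Like the 7 it was highest in GDE replicate 3, and like 6 of the 7 it was lowest in Control replicate 1. miR-196b-5p was at 3.00, 2.88 and 18.4 RPM in GDE replicates 1 to 3 and at 1.50, 2.58 and 2.47 RPM in Control replicates 1 to 3, so most of its likeness came from GDE replicate 3. These 5 were picked for likeness to a profile that is higher in GDE, so their own folds carry no test here.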

How the data were processed

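Per the labels' protocols, RNA was taken up in TRIzol and the small RNA libraries were prepared with an MGIEasy kit. Bowtie2 and mm10 are named, per the submitters' processing notes, while the sources used here give no trimming, multi-mapping or molecular identifier step. The deposited values were read as RPM by the authors from the values themselves: in each library 100% of nonzero values were whole multiples of 1 step, within 0.1 tags, which gave the whole tags. Groups and replicates came from the titles.

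limma 3.58.1 (R 4.3.3) with a trend on log2(RPM + 1) was run on rows that reached 1 RPM in at least 3 libraries, two-sided, with Benjamini-Hochberg adjustment at 0.05. edgeR 4.0.16 and DESeq2 1.42.0 on the recovered tags, a replicate block, other scalings, pseudocounts and filters, and leaving out each library were alternatives. The fit was tested on simulated data. Python 3.11.15 and scipy 1.17.1 gave exact intervals. The miRNAs and lists were chosen with earlier results of these data known. Named miRNAs were all 7, the other arms in the table, up to 4 abundant members of a list where a result turned on them, and the 5 nearest in profile; miR-200a-3p, miR-200b-3p, miR-200c-3p, miR-429-3p, miR-141-3p, miR-203-3p, miR-183-5p, miR-96-5p and miR-182-5p were named after their values were seen, as defining markers of their lists.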

Additional observations from a re-analysis of the deposited data

How the results depend on the processing

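The log2 folds of the 7 miRNAs kept their sign in all 70 recomputations, which used pseudocounts of 0.1 and 10, scaling to the rows of the table, TMM factors, and leaving out each library. Of the 70, 28 only changed the scale or the pseudocount. All reused the same libraries and the contrast known when the 7 were picked, so the count is no independent evidence of a difference. A pseudocount of 10 RPM lowered the median of the 7 to 0.43. It lowered the folds of the rarer miRNAs most, to 0.43 for miR-448-3p, 0.38 for miR-211-5p, 0.75 for miR-1264-5p, 0.07 for miR-1264-3p and 0.13 for miR-204-3p. Without 1 library the median of the 7 ranged from 0.79 to 1.50, and the share of miR-211-5p in miR-204-5p, GDE minus Control, from -0.0025 to 0.32 percentage points, with -0.0025 without Control replicate 3. The number of miRNAs past the threshold was 2, against 7 by DESeq2 and 1 with at least 10 RPM in 3 libraries, which tests fewer miRNAs; it was 2 to 3 without 1 library. Of the listed miRNAs DESeq2 called 1, and leaving out a library gave 0 to 1, the 1 being miR-223-3p without Control replicate 2; the cause was not tested. With a replicate block 2 miRNAs passed as before. The median of the 7 stayed at 1.20, as it must when every block holds both groups. The SE fell from 0.78 to 0.45 for miR-1298-5p, from 0.67 to 0.33 for miR-1264-5p and from 0.53 to 0.34 for miR-448-3p. For miR-211-5p it was 0.38 without and 0.39 with the block. Deviations of same-numbered libraries correlated at -0.03, -0.12 and -0.03 over the 649 miRNAs. With 3 libraries per group these values cannot settle whether the numbers pair the libraries. With few tags, the 3p arms and miR-764-5p are limited by depth.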
